A study of Mus musculus with 30 samples.

Results

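The lysosome breaks down proteins, sugars, lipids and glycogen that reach it by phagocytosis, endocytosis or autophagy. Its hydrolases work at acid pH, which a proton pump in its membrane maintains, and the transcription factor TFEB switches many of its genes on together. Macrophages, which clear dead fibres from injured muscle, are rich in lysosomes, and muscle fibres use theirs to recycle organelles and glycogen. The 41 genes described here were chosen by name as lysosomal enzymes, cathepsins, membrane proteins and subunits of the proton pump, with Tfeb as their regulator. The files count 26264 genes. All 41 were listed in every library and all passed the filter on low counts, which kept 17136 genes.

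The injured groups were tibialis anterior muscles, from the front of the shin, collected from female and male mice on days 4, 7, 11 and 15 of recovery from volumetric muscle loss, in which a block of muscle is removed. The uninjured groups were the same muscle of females and males without injury. With 3 libraries for each sex at each time, every day and the uninjured state had 6 libraries, and the series 30. The labels give no strain, age, genotype or size of injury, and do not say whether libraries came from separate animals. The p-values therefore measure the spread between these samples, which may be technical.

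Total counts were 13089999 to 57277336 per library and were lowest at day 15. TMM factors, which correct the library totals for genes that take up much of a library, were 0.968 to 1.57 in injured muscle and 0.484 to 0.597 in uninjured muscle. The choice of scaling therefore moves every fold change. The median log2 fold change over all 17136 genes was 0.17, 0.24, 0.32 and 0.26 at days 4, 7, 11 and 15 with TMM, and 1.47, 1.42, 1.46 and 1.30 by library size alone. Levels below are CPM, a gene's counts scaled to the TMM-corrected library total, and "higher" and "lower" refer to that scale unless the text says otherwise. The library labelled female day 11 replicate 3 had 0.109 CPM of Xist and 57.4 CPM of the Y-linked gene Ddx3y, against its label. It also had the lowest summed level of the 41 genes at day 11, 3074 CPM, where the other 5 libraries held 3997 CPM or more. Results for day 11 are given with it and, where a call changed, without it.

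At day 4 most of these genes were more abundant than in uninjured muscle, and by day 15 more of them were below the uninjured level than above it, though not by library size alone. Of the 41, 25 were higher (61%) and 7 lower (17.1%) at day 4 by edgeR's quasi-likelihood test at an adjusted p under 0.05, while 40.1% of all tested genes were higher and 33% lower (73.1% in either direction). At day 7, 17 were higher (41.5%) and 12 lower (29.3%), against a background of 41.6% and 29.9% (71.5% in either direction). At day 11, 15 were higher (36.6%) and 17 lower (41.5%), against 42.7% and 29.7% of all tested genes (72.4% in either direction). At day 15, 13 were higher (31.7%) and 18 lower (43.9%), against 39.7% and 29.3% (69% in either direction). The share called higher was thus above that of all genes at day 4, about equal to it at day 7 and below it at days 11 and 15. The median log2 fold change of the 41 genes was 0.95, 0.19, 0.27 and -0.06 at the 4 days. Without female day 11 replicate 3, 19 genes were higher and 16 lower at day 11. Ctsb, Gla, Gusb, Hexa and Npc2 were then also called higher, and Manba and Ctsl were no longer called.

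The calls of higher genes held under each scaling, while most calls of lower genes did not hold by library size alone. Dropping the TMM factors raises the fold changes as a whole, so this outcome by library size was largely set in advance. It is therefore no check on the higher calls. All 25, 17, 15 and 13 genes called higher at the 4 days were also called higher by library size alone. Library size alone gave 37 higher and 3 lower at day 4, 33 and 2 at day 7, 30 and 4 at day 11, and 27 and 4 at day 15. Under that scaling most genes of the whole table were called higher (73.5%, 73.9%, 73.8% and 69.8% at the 4 days) and few lower (8.65%, 7.07%, 8.08% and 7.94%), so these counts are to be read against those shares. Of the 7, 12, 17 and 18 called lower with TMM, 3, 2, 4 and 4 were also lower by library size alone and by RLE scaling. These were Ctsf, Smpd1 and Tfeb at day 4, Gaa and Smpd1 at day 7, and Gaa, Smpd1, Lamp1 and Atp6v0c at days 11 and 15. Another 3, 5, 6 and 4 of the lower genes were instead called higher by library size alone. Set against the median gene of the same scaling, every gene called with TMM (32, 29, 32 and 31) kept its side under all 3 scalings. A change of scaling moves a gene and the median gene by nearly the same amount, so this agreement is largely arithmetic. Each gene called lower lay below the median gene.

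**Figure D1:**
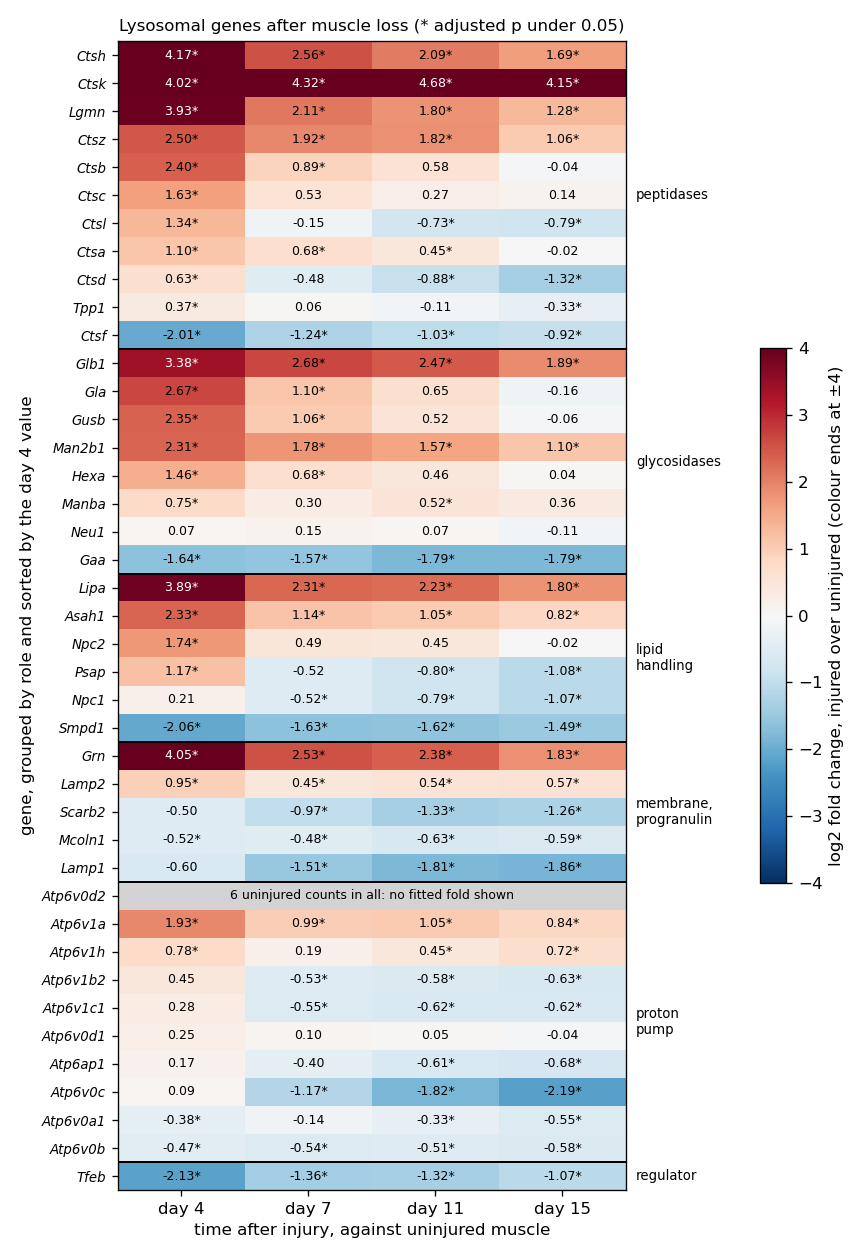
Log2 fold change of each gene at days 4, 7, 11 and 15 (columns) over uninjured muscle, from edgeR with TMM scaling and 6 libraries per time, with genes in rows by role; red is higher and blue lower in injured muscle, and stars mark an adjusted p under 0.05. With Atp6v0d2, which is grey because its uninjured libraries held 6 counts in all, 25 genes were called higher at day 4, and day 15 shows 18 starred lower values.

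The genes followed a few courses. Higher at all 4 days were 12 genes: Ctsh, Ctsk, Ctsz, Lgmn, Glb1, Man2b1, Lipa, Asah1, Lamp2, Grn, Atp6v0d2 and Atp6v1a. Another 8 were higher at day 4 and not called at day 15: Ctsa, Ctsb, Ctsc, Gla, Gusb, Hexa, Manba and Npc2. In 4 genes, Ctsd, Ctsl, Tpp1 and Psap, the call was higher at day 4 and lower at day 15, where by library size alone Tpp1 was called higher and the others were not called. A further 7 were not called at day 4 and were lower at day 15, namely Npc1, Lamp1, Scarb2, Atp6v0c, Atp6v1b2, Atp6v1c1 and Atp6ap1, of which only Lamp1 and Atp6v0c were also called lower by library size alone. Lower at all 4 days were 6 genes, Ctsf, Gaa, Smpd1, Mcoln1, Atp6v0b and Tfeb, of which Mcoln1 and Atp6v0b were called higher at all 4 days by library size alone. Neu1 and Atp6v0d1 were called at no day. The mean level was highest at day 4 for 30 of the 41 genes, in uninjured muscle for 9, at day 7 for Neu1 and at day 11 for Ctsk. Courses and highest days were not counted over all tested genes, of which 69 to 73.1% were called at each day. These numbers therefore describe the 41 genes and do not set them apart from others.

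Groups of 6 libraries often did not overlap, which was also common among all tested genes. The number above at day 4 lay furthest from the share of all tested genes, and the numbers at later days lay near theirs. At day 4 the 6 injured libraries lay above all 6 uninjured ones for 25 genes and below them for 6, while this held for 31% and 25.9% of all tested genes. At day 7 the numbers were 12 above and 6 below (background 24.9% and 19.3%). At day 11 they were 12 above and 8 below (25.8% and 20.5%), and at day 15 12 above and 11 below (24.1% and 21.1%).

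Markers of other cell types moved over the same days. The summed level of 15 macrophage markers, given as the median and range of 6 libraries, was 70.7 (55.4–81.4) CPM in uninjured muscle, 4099.8 (3395–4899.9) at day 4, 1594 (918–3109) at day 7, 1527 (318–3277) at day 11 and 867 (378–1652) at day 15. All 15 were called higher at each of the 4 days under TMM, RLE and library size alone. The summed level of 11 markers of mature fast fibres, mainly contractile proteins, was 469016 (332568–486522) CPM in uninjured muscle, 53225 (10980.3–63860.1) at day 4, 91121 (25226–155439) at day 7, 77063 (65084–146388) at day 11 and 127634 (68795–132255) at day 15. Of these, 10, 10, 9 and 8 were called lower at days 4, 7, 11 and 15. Fibroblast markers, 7 in number, summed to 448 (332–854) CPM in uninjured muscle, 11406 (7820.3–13194) at day 4, 12147 (6428–28772) at day 7, 18317 (5244–32062) at day 11 and 10751 (6146–18098) at day 15. The 5 markers of regenerating fibres, Myh3, Myh8, Myog, Mymk and Chrng, summed to 29 (21.2–39.2) CPM in uninjured muscle, 3669 (2891–4212) at day 4, 2038 (1619.5–4729.8) at day 7, 1911 (278–2307) at day 11 and 482 (392–894) at day 15. All 5 were higher at each day than in uninjured muscle, and all 5 were lower at day 15 than at day 4. The 6 neutrophil markers summed to 1.68 (1.06–2.3) CPM in uninjured muscle, 50.2 (41–63.8) at day 4, 31.6 (17.8–43.1) at day 7, 19.1 (9.29–36) at day 11 and 8.25 (4.09–49.6) at day 15, and 4, 4, 3 and 3 of the 5 tested were higher at the 4 days. Of 5 endothelial markers, 0 were higher and 3 lower at day 4, and 3 were higher and 1 lower at day 15. In bulk tissue, fewer cells of a type and less RNA per cell cannot be told apart, and the part of these shifts in the values below was not tested. The summed level of the 41 genes was 7463 (5827–8392) CPM in uninjured muscle, 14432 (13361–17765) at day 4, 6735 (4545–9562) at day 7, 6062 (3074–7406) at day 11 and 4410.2 (3525–5802) at day 15. As a share of all counts, which amounts to library size alone, the 41 genes held 0.389% (0.323–0.445) in uninjured muscle, 1.86% (1.64–2.53) at day 4, 0.765% (0.478–1.26) at day 7, 0.692% (0.396–0.886) at day 11 and 0.479% (0.364–0.675) at day 15. This share depends on how much of a library its most abundant genes take up. The top 10 genes held 25.7 to 32.3% of the counts in uninjured libraries and 5.56 to 10.3% at day 4.

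**Figure D2:**
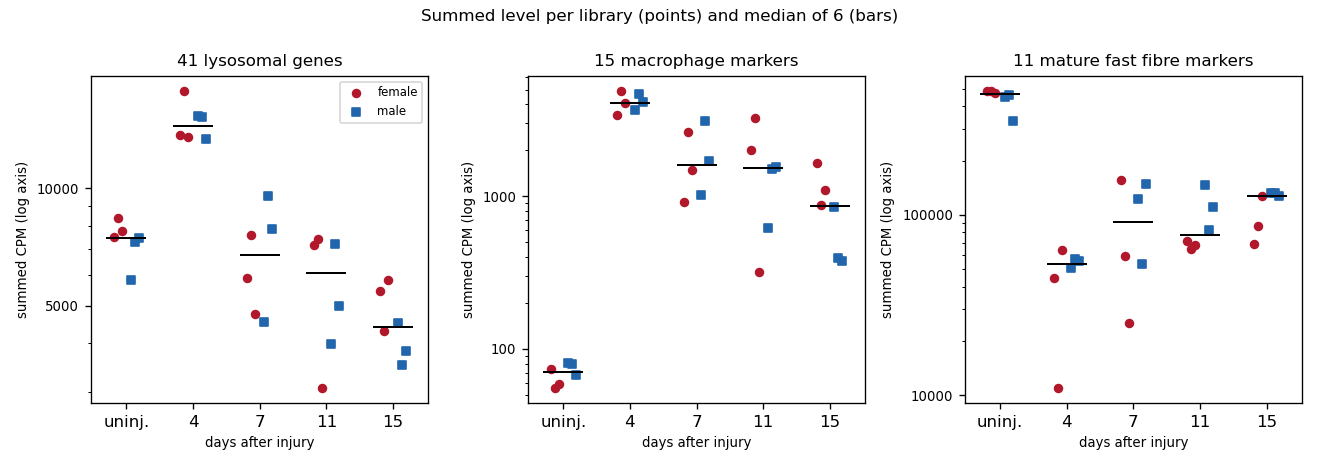
Summed CPM of the 41 lysosomal genes, of 15 macrophage markers and of 11 mature fast fibre markers in each library (log axes), by days after injury, with females as circles, males as squares and the median of 6 libraries as a bar. The lysosomal sum is highest at day 4 (13361 to 17765 CPM) and overlaps the uninjured range (5827 to 8392 CPM) at day 7, whereas every macrophage marker sum after injury lies above the uninjured range.

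Tfeb, the regulator, was lower at every day. Its level, as the median and range of 6 libraries like all levels below, was 222 (155–292) CPM in uninjured muscle, 50.7 (25.5–65.8) at day 4, 82.8 (43.7–122) at day 7, 82.1 (75.6–103) at day 11 and 103 (92.3–115) at day 15. The injured libraries lay below all uninjured libraries at each day, with the lowest median at day 4. The log2 fold change (± SE) was -2.13 ± 0.21 at day 4 (adjusted p = 1.75e-09) and -1.07 ± 0.20 at day 15 (adjusted p = 4.82e-05), both from edgeR. By library size alone it was -0.85 at day 4, still called lower, and -0.02 at day 15, not called. The related factor Tfe3, which acts on many of the same genes, had 17.7 (15.6–21.7) CPM in uninjured muscle, 51.1 (49.5–63.9) at day 4, 37.1 (34–45.1) at day 7, 43.2 (31.1–60.9) at day 11 and 42.2 (31.4–53.3) at day 15, and its log2 fold change at day 4 was 1.57 ± 0.14 (adjusted p = 7.26e-10). Its libraries lay above the uninjured range at each day. Mitf, the family member known from melanocytes and osteoclasts, was -0.30 against uninjured muscle at day 4 with an edgeR adjusted p of 0.0847. At day 7 Mitf lay 0.49 below uninjured muscle on the log2 scale, and by library size alone 0.67 above it. Tfec, known from macrophages, had 2266 counts at day 4 and 4 in all uninjured libraries together, a ratio of 199.8 (77.9–734) with a 95% interval for counting error alone. Among the counts of these 4 factors, not corrected for length, Tfeb held 85.6% (77.6–88.5) in uninjured muscle, 40.8% (21.7–48.4) at day 4, 58.4% (41.1–70.4) at day 7, 59.4% (49.2–65) at day 11 and 63.2% (59.1–67.7) at day 15. The Tfe3 share was 6.81% (5.16–10.1) in uninjured muscle, 40.8% (36.7–54.4) at day 4, 27.9% (20.5–41.4) at day 7, 30.04% (22–38.3) at day 11 and 26.8% (20.2–29) at day 15.

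TFEB and its relatives bind the E-box CACGTG, and lysosomal promoters often carry the longer palindrome TCACGTGA, part of the CLEAR element. The promoter windows of 33 of the 41 genes were found in RefSeq's annotation of GRCm38.p6, from 250 bases before to 50 after each annotated start. The counts were made on mm39, so these windows serve only to show sequence. At least 1 match on either strand was present for CACGTG in 13 of the 33 genes (39.4%), for TCACGTG in 11 (33.3%) and for TCACGTGA in 6 (18.2%). Each longer motif contains the shorter ones. Among 13370 tested genes with a window the shares were 10.8%, 6.28% and 1.91%, and among all 27018 genes with a window 8.09%, 4.29% and 1.13%. All 6 genes with the palindrome are shown. Each line gives 100 bases of the window, 5′ to 3′ on the gene's strand, with the palindrome in capitals.
Ctsa, chr2:164833722-164833821, plus strand: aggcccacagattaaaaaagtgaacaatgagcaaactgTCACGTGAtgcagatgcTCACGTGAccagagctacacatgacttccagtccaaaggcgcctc
Ctsd, chr7:142387873-142387972, minus strand: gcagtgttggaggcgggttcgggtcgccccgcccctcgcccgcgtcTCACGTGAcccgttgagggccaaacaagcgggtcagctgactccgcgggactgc
Gla, chrX:134601156-134601255, minus strand: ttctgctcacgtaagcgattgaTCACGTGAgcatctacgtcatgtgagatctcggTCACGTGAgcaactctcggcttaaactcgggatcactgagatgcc
Mcoln1, chr8:3500427-3500526, plus strand: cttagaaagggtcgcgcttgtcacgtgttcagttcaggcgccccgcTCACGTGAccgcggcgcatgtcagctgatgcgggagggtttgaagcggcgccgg
Atp6v0d1, chr8:105566015-105566114, minus strand: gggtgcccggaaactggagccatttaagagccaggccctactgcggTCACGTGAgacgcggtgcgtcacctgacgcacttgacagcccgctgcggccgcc
Atp6v1a, chr16:44139338-44139437, minus strand: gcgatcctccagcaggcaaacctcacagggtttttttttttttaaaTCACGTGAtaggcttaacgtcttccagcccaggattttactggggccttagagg
Ctsa and Gla hold the palindrome 2 times each and the others once. Of these 6 genes, Ctsa, Ctsd, Gla and Atp6v1a were higher at day 4, Atp6v0d1 was not called and Mcoln1 was lower (though higher by library size alone). The palindrome was in 4 of 20 genes called higher at day 4 (20%) and in 2 of 13 that were not (15.4%). A match is a description of sequence and not a binding site.

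Peptidases made up 11 of the genes, and 10 of them were higher at day 4, with Ctsf the exception. At day 15, 4 were higher and 4 lower. Of all tested genes, 40.1% were higher and 33% lower at day 4, and 39.7% and 29.3% at day 15. Ctsh, an aminopeptidase of the cathepsin family, had 9.35 (7.42–12.3) CPM in uninjured muscle, 166 (151–201) at day 4, 55 (28–105) at day 7, 43.3 (18.3–63.7) at day 11 and 30.04 (14.7–52.7) at day 15. Lgmn, or legumain, which cuts after asparagine and matures other cathepsins, had 43.8 (27.2–47.7) CPM in uninjured muscle, 604 (538–781) at day 4, 175 (80.1–293) at day 7, 151 (55.9–244) at day 11 and 105 (64.9–146) at day 15. In both genes every injured library lay above every uninjured one, and day 4 lay above all later days. The log2 fold change of Ctsh was 4.17 ± 0.34 at day 4 and 1.69 ± 0.31 at day 15 (edgeR adjusted p = 9.23e-11 and 3.13e-05). For Lgmn it was 3.93 ± 0.34 at day 4 and 1.28 ± 0.31 at day 15 (adjusted p = 2.76e-10 and 0.000706).

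Ctsk, the collagen-degrading cathepsin best known from osteoclasts, did not follow that course. It had 3.59 (2.0–5.69) CPM in uninjured muscle, 60.4 (54.2–68.5) at day 4, 67.3 (30.7–170.5) at day 7, 113 (23.1–153) at day 11 and 67.6 (37.4–103) at day 15. All injured libraries were above the uninjured ones, and the later days spread widely around the narrow day 4 range. Its log2 fold change was 4.02 ± 0.41, 4.32 ± 0.42, 4.68 ± 0.42 and 4.15 ± 0.41 at the 4 days. The differences of days 7 and 15 from day 4 did not pass the test (0.30 ± 0.36, adjusted p = 0.527, and 0.14 ± 0.36, adjusted p = 0.77). The lowest day 11 value, 23.1 CPM, came from female day 11 replicate 3.

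Ctsb, a cysteine cathepsin found in most cell types, had 614 (427–739) CPM in uninjured muscle, 3069.6 (2828–3777) at day 4, 1034 (633–1666) at day 7, 990.1 (251–1439.7) at day 11 and 586 (391–858) at day 15. Its log2 fold change was 2.40 ± 0.33 at day 4 (adjusted p = 4.83e-07), 0.89 ± 0.32 at day 7 and -0.04 ± 0.31 at day 15 (adjusted p = 0.918). Ctsb shares 774 exonic bases with Fdft1 on the other strand in GENCODE M21, and the sources used here do not say how strand was handled in counting. The day 4 libraries stood clear of the uninjured ones and the later days overlapped them. Ctsz, a carboxypeptidase, was higher by 2.50 ± 0.28 at day 4 and by 1.06 ± 0.27 at day 15. Ctsc, which activates the serine proteases of immune cells, was higher by 1.63 ± 0.25 at day 4 and was not called later. Ctsa, which stabilises β-galactosidase and neuraminidase, was higher at days 4, 7 and 11, by 1.10 ± 0.16, 0.68 ± 0.16 and 0.45 ± 0.15.

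With TMM scaling Ctsd, Ctsl and Tpp1 were above the uninjured level at day 4 and below it at day 15. The aspartic protease Ctsd had 1269.7 (979–1332) CPM in uninjured muscle, 1838 (1671–2085) at day 4, 912 (448–1198) at day 7, 626 (323–1059.7) at day 11 and 471 (394–620.4) at day 15. Its libraries lay above the uninjured ones at day 4 and below them at day 15. The log2 fold changes were 0.63 ± 0.24 (adjusted p = 0.0236) and -1.32 ± 0.25 (adjusted p = 4.54e-05). Without female day 4 replicate 2 the day 4 value was 0.58 and its adjusted p 0.0508. Ctsl, a cysteine endopeptidase, had 258 (166–324) CPM in uninjured muscle, 614 (561–715) at day 4, 216 (72.9–509) at day 7, 138 (57–293) at day 11 and 147 (106–195) at day 15. Its log2 fold change was 1.34 ± 0.32 at day 4 and -0.79 ± 0.32 at day 15 (adjusted p = 0.0308), and 0.24 by library size alone, not called. Tpp1, a tripeptidyl peptidase lost in a childhood form of neuronal ceroid lipofuscinosis, had 111 (95.8–127) CPM in uninjured muscle, 146 (133–157) at day 4, 116 (104–131) at day 7, 106 (83.3–125) at day 11 and 89.4 (77–98) at day 15. It moved little, by 0.37 ± 0.12 at day 4 and -0.33 ± 0.12 at day 15 (adjusted p = 0.00589 and 0.0148), and by library size alone the day 15 value was 0.72 and called higher.

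Ctsf, a cysteine cathepsin, was the peptidase that was lower throughout. It had 64 (47.4–71.2) CPM in uninjured muscle, 15.8 (8.86–18.3) at day 4, 24.3 (12.9–39.3) at day 7, 24.7 (16.7–50.2) at day 11 and 32.7 (20.9–41.6) at day 15. The injured libraries lay below the uninjured ones at days 4, 7 and 15 and overlapped them at day 11. Its log2 fold change was -2.01 ± 0.27 at day 4 (adjusted p = 2.91e-07) and -0.92 ± 0.26 at day 15 (adjusted p = 0.00301), and by library size alone -0.72, called lower, and 0.10, not called. Within 9 cathepsins (Ctsa, Ctsb, Ctsc, Ctsd, Ctsf, Ctsh, Ctsk, Ctsl and Ctsz) the makeup of the counts shifted. The share of Ctsd was 50.5% (48.4–52.1) in uninjured muscle, 27.5% (26.7–28.8) at day 4, 30.7% (22–34.8) at day 7, 29.2% (21.9–32.9) at day 11 and 28% (25.1–36) at day 15. The share of Ctsb was 24.6% (22.4–27.2) in uninjured muscle, 46.5% (45.4–48.6) at day 4, 37.6% (33.4–41.2) at day 7, 38% (23.9–44.1) at day 11 and 34.6% (28–42) at day 15. The uninjured range of Ctsd lay above every injured library, and the day 4 range of Ctsb lay above every library of the other times. The share of Ctsk was 0.161% (0.0737–0.24) in uninjured muscle, 0.891% (0.82–1.03) at day 4, 2.2% (1.62–3.93) at day 7, 3.78% (2.21–5.07) at day 11 and 3.64% (2.62–6.23) at day 15, and every library of a later day lay above the day 4 range.

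**Figure D3:**
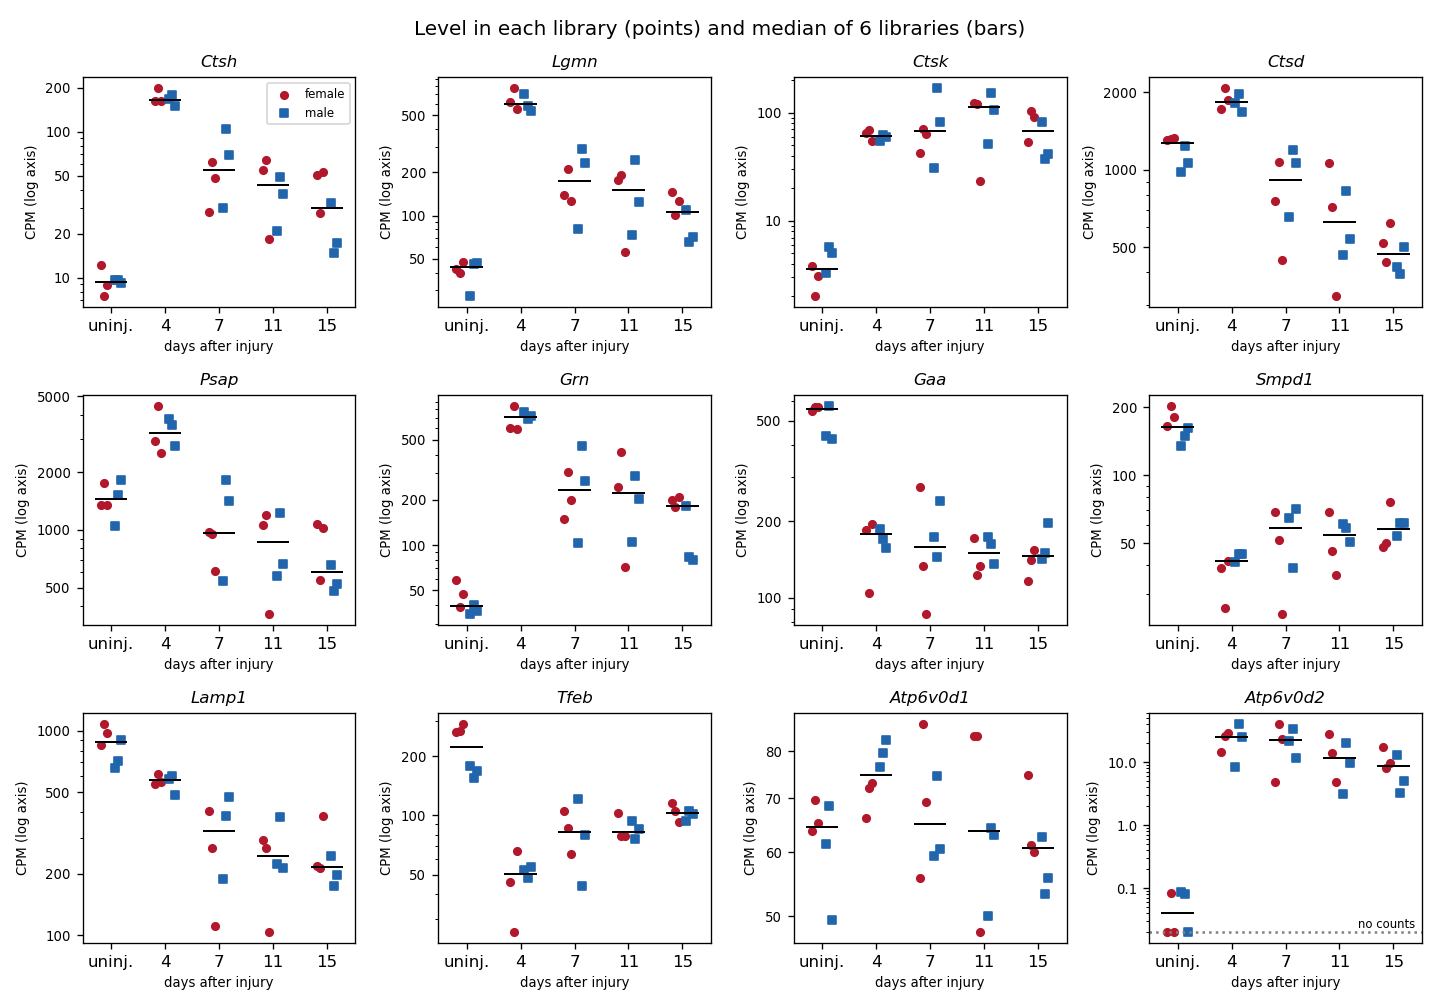
CPM of 12 of the genes in each of the 30 libraries (log axes) by days after injury, with females as circles, males as squares and the median of 6 libraries as a bar; libraries without a count of Atp6v0d2 sit on the dotted line. Ctsh, Lgmn and Grn peak at day 4 and stay above the uninjured range, Ctsk stays high, Gaa, Smpd1 and Tfeb stay below the uninjured range, and Atp6v0d1 overlaps it at each day.

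Of the 8 glycosidases, which remove sugars from glycoproteins, glycolipids and glycogen, 6 were higher at day 4 and 2 at day 15 (40.1% and 39.7% of all tested genes). Glb1, the lysosomal β-galactosidase used as a senescence marker, had 3.11 (2.33–4.27) CPM in uninjured muscle, 33.1 (28.6–39.3) at day 4, 18.2 (12.6–32.3) at day 7, 18.8 (9.02–27) at day 11 and 12.8 (8.03–15.7) at day 15. Its injured libraries stood above the uninjured ones at each day. The log2 fold change was 3.38 ± 0.27 at day 4 and 1.89 ± 0.26 at day 15 (edgeR adjusted p = 7.34e-11 and 6.63e-07). Glb1 shares 165 exonic bases with Tmppe on the same strand. Gla, the α-galactosidase deficient in Fabry disease, had 3.74 (3.17–5.69) CPM in uninjured muscle, 22.8 (22–35.4) at day 4, 7.69 (4.92–13.2) at day 7, 5.89 (2.02–12.1) at day 11 and 3.26 (2.92–5.2) at day 15. It stood clear of the uninjured libraries at day 4 and overlapped them afterwards, with log2 fold changes of 2.67 ± 0.32 at day 4 and -0.16 ± 0.31 at day 15 (adjusted p = 4.47e-08 and 0.658). Gusb, the β-glucuronidase, and Man2b1, the acid α-mannosidase, were higher by 2.35 ± 0.25 and 2.31 ± 0.21 at day 4. At day 15 Gusb was at -0.06 ± 0.24 (adjusted p = 0.83) and Man2b1 at 1.10 ± 0.20 (adjusted p = 3.9e-05). Hexa, the α subunit of β-hexosaminidase, was higher by 1.46 ± 0.24 and the β-mannosidase Manba by 0.75 ± 0.19 at day 4.

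Gaa and Neu1 stood apart from the other glycosidases. Gaa, the acid α-glucosidase that digests glycogen and is deficient in Pompe disease, had 558 (423–574) CPM in uninjured muscle, 178 (104–195) at day 4, 159 (85.7–273) at day 7, 149 (123–174) at day 11 and 146 (117–198) at day 15. Its injured libraries lay below every uninjured library at each day. The log2 fold change was -1.64 ± 0.22, -1.57 ± 0.22, -1.79 ± 0.22 and -1.79 ± 0.22 at the 4 days (adjusted p from 1.15e-07 to 8.27e-07), and by library size alone it was -0.34 at day 4, not called, and -0.75 at day 15, called lower. The lowest day 4 value, 104 CPM, came from female day 4 replicate 2, which also had the lowest sum of mature fast fibre markers of its day. Neu1, the sialidase that Ctsa stabilises, had 34.3 (29.3–39.2) CPM in uninjured muscle, 35.2 (31.3–39.6) at day 4, 37.1 (32.1–45.4) at day 7, 35.4 (30.3–42.7) at day 11 and 30.8 (27.5–36.2) at day 15. The ranges overlapped at each day, and its log2 fold change was 0.07 ± 0.11 at day 4 and -0.11 ± 0.11 at day 15 (adjusted p = 0.593 and 0.383), while by library size alone it was 1.37 and 0.93, called higher at both days.

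Among 6 genes of lipid and sphingolipid handling, 4 were higher at day 4 (40.1% of all tested genes). At day 15, 2 were higher and 3 lower (39.7% and 29.3%). Lipa, the acid lipase that frees cholesterol and fatty acids, had 7.27 (5.34–9.57) CPM in uninjured muscle, 107 (72.4–154) at day 4, 33.2 (18.9–69.6) at day 7, 35.9 (13.6–58) at day 11 and 21.4 (15.2–45.5) at day 15. Asah1, acid ceramidase, had 21 (18–23.3) CPM in uninjured muscle, 96.2 (90.1–141) at day 4, 44.7 (27.9–73.6) at day 7, 44.3 (29.1–57.1) at day 11 and 40.8 (26.5–46.5) at day 15. Both stood above the uninjured libraries at each day. Lipa was higher by 3.89 ± 0.35 at day 4 and 1.80 ± 0.33 at day 15, and Asah1 by 2.33 ± 0.20 and 0.82 ± 0.20, each with an edgeR adjusted p of 0.000667 or less.

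Psap encodes prosaposin, the precursor of the saposins that help sphingolipid hydrolases. It had 1443 (1044–1824) CPM in uninjured muscle, 3215 (2527–4455) at day 4, 965 (544–1822) at day 7, 859.8 (362–1229) at day 11 and 601 (479.9–1079) at day 15. Its day 4 libraries were above the uninjured ones and the later ones overlapped them. The log2 fold change was 1.17 ± 0.31 at day 4 (adjusted p = 0.00146) and -1.08 ± 0.31 at day 15 (adjusted p = 0.00304), and by library size alone the day 15 value was -0.05, not called. The cholesterol exporters Npc2 and Npc1 differed. Npc2, the soluble partner, was higher by 1.74 ± 0.31 at day 4 and was at -0.02 ± 0.30 at day 15 (adjusted p = 0.955). Npc1, the membrane partner, had 63.3 (48.9–127) CPM in uninjured muscle, 84.2 (67.3–92.7) at day 4, 47.4 (37.8–66.2) at day 7, 39.8 (36.9–47.6) at day 11 and 32.6 (28.6–43.3) at day 15. Its libraries overlapped the uninjured ones at days 4 and 7 and lay below them at days 11 and 15, with a log2 fold change of -1.07 ± 0.16 at day 15 (adjusted p = 1.5e-06) that by library size alone was -0.02. Npc1 shares 511 exonic bases with Rmc1 on the other strand.

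Smpd1, the acid sphingomyelinase, was lower at every day under all 3 scalings. It had 163 (134–203) CPM in uninjured muscle, 41.8 (26–44.8) at day 4, 58.3 (24.3–71.2) at day 7, 54.6 (36.3–68.9) at day 11 and 57.7 (48.4–76.3) at day 15. The highest injured library was below the lowest uninjured one at each day. Its log2 fold change was -2.06 ± 0.21 at day 4 and -1.49 ± 0.21 at day 15 (adjusted p = 4.06e-09 and 8.67e-07), and -0.77 and -0.46 by library size alone. Asah1 and Smpd1, which act on neighbouring steps of ceramide metabolism, thus lay on opposite sides of the uninjured level at each day.

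The 5 genes for membrane proteins, the calcium channel and progranulin were split. Grn, whose product progranulin is cut into granulins in the lysosome and is abundant in macrophages, had 39.6 (34.6–59) CPM in uninjured muscle, 707 (589.6–846) at day 4, 234 (103–454) at day 7, 224 (71.3–417) at day 11 and 181 (80.2–208) at day 15. It stood above the uninjured libraries at each day and was higher by 4.05 ± 0.38 at day 4 and 1.83 ± 0.35 at day 15 (edgeR adjusted p = 1.07e-09 and 5.8e-05). Lamp2, a membrane glycoprotein needed for chaperone-mediated autophagy and for the fusion of autophagosomes, had 105 (92.5–112) CPM in uninjured muscle, 192 (171–243) at day 4, 139.6 (101–188) at day 7, 144 (131–189) at day 11 and 152 (134–173) at day 15. It was higher by 0.95 ± 0.15 at day 4 and 0.57 ± 0.15 at day 15 (adjusted p = 2.53e-06 and 0.00123).

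Lamp1, the close relative of Lamp2, was not among the higher genes. It had 878 (660.1–1085) CPM in uninjured muscle, 573 (485–618) at day 4, 325 (111–473) at day 7, 245 (103–377) at day 11 and 216 (175–381) at day 15. Its injured libraries were below the uninjured ones at each day, but the day 4 difference of -0.60 ± 0.28 did not pass the test (adjusted p = 0.0576) and by library size alone was 0.71 and called higher. At day 15 the log2 fold change was -1.86 ± 0.29 (adjusted p = 3.74e-06) and by library size alone -0.84, called lower. Scarb2, or LIMP-2, the receptor that carries β-glucocerebrosidase to the lysosome, had 155 (104–195) CPM in uninjured muscle, 109 (91.4–116) at day 4, 70.3 (33.3–119.996) at day 7, 61.6 (38.3–76.5) at day 11 and 58.3 (50.7–99.2) at day 15. It was called lower from day 7 on, with -1.26 ± 0.24 at day 15 (adjusted p = 6.74e-05), a value that by library size alone was -0.24 and not called. Mcoln1, the calcium channel TRPML1, had 48.5 (38.2–52.2) CPM in uninjured muscle, 33.8 (28–37.2) at day 4, 34.2 (29.5–37.1) at day 7, 29.96 (27.7–34) at day 11 and 31.6 (26.3–36.2) at day 15. Its ranges lay below the uninjured one at each day, with -0.52 ± 0.11 at day 4 and -0.59 ± 0.11 at day 15 (adjusted p = 0.000243 and 6.97e-05), while by library size alone the values were 0.78 and 0.45 and called higher. Grn and Lamp1 share 68 and 249 exonic bases with genes on the other strand, as do Ctsa, Ctsz, Hexa, Atp6v1h and Atp6v0b, so their counts may hold reads of those genes.

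The proton pump has a cytosolic V1 part that splits ATP and a membrane V0 part that moves protons. Of the 10 subunits here, 3 were higher and 2 lower at day 4 (40.1% and 33% of all tested genes), and 3 were higher and 6 lower at day 15 (39.7% and 29.3%). All 10 were called higher at day 4 by library size alone, while 6 were higher and 1 lower at day 15. That scaling called 73.5% of all tested genes higher at day 4, and 69.8% higher and 7.94% lower at day 15. Atp6v1a, the catalytic A subunit of V1, had 25.1 (19.7–37.2) CPM in uninjured muscle, 91.4 (81.6–144) at day 4, 49 (41.4–64.9) at day 7, 56.5 (35.6–65.4) at day 11 and 45.2 (36.7–58.6) at day 15. It was above the uninjured range at days 4 and 7 and higher by 1.93 ± 0.17 at day 4 and 0.84 ± 0.17 at day 15 (edgeR adjusted p = 4.95e-10 and 0.000104). Atp6v1h, a regulatory V1 subunit, was higher at days 4, 11 and 15, by 0.78 ± 0.14, 0.45 ± 0.14 and 0.72 ± 0.14.

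Other V1 subunits were called lower after day 4 with TMM. By library size alone they were instead called higher at days 7 and 11 and not called at day 15. Atp6v1b2, the B subunit, had 105 (65.2–165) CPM in uninjured muscle, 143 (119–199) at day 4, 79.2 (61.9–87.2) at day 7, 69.9 (42.2–114) at day 11 and 63.2 (54.8–102) at day 15. Atp6v1c1, a stalk subunit, had 44.8 (31.7–53.2) CPM in uninjured muscle, 51.6 (45–66.2) at day 4, 29.4 (23.5–37.8) at day 7, 26.5 (18.6–38.6) at day 11 and 26.7 (24.3–36) at day 15. Their injured and uninjured ranges overlapped at each day. At day 4 their log2 fold changes were 0.45 ± 0.22 and 0.28 ± 0.16 (adjusted p = 0.0697 and 0.113). At day 15 they were -0.63 ± 0.22 and -0.62 ± 0.16 (adjusted p = 0.0151 and 0.00152), and by library size alone 0.40 and 0.41, not called. The values by library size alone were 0.63 and 0.62 at day 7 and 0.55 and 0.51 at day 11.

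In the V0 part, Atp6v0c, the proteolipid of the rotating ring, had the lowest log2 fold change of the 41 genes at day 15. It had 99.1 (84.1–117) CPM in uninjured muscle, 107 (89–114) at day 4, 39 (15.3–88.7) at day 7, 28.8 (11–39) at day 11 and 22.1 (14.8–26.8) at day 15. Days 11 and 15 lay below the uninjured range, and days 4 and 7 overlapped it. The log2 fold change was 0.09 ± 0.30 at day 4 (adjusted p = 0.806) and -2.19 ± 0.32 at day 15 (adjusted p = 1.45e-06), and -1.15 by library size alone, still called lower. A pseudogene, Atp6v0c-ps2, is counted separately in the files, so reads may be split between the copies. Atp6v0b, the other ring subunit, had 149.8 (114–164) CPM in uninjured muscle, 106 (95–125) at day 4, 99.3 (83.4–122) at day 7, 102 (80.2–126) at day 11 and 95.6 (85.3–122) at day 15, and was lower, at -0.47 ± 0.13 at day 4 and -0.58 ± 0.13 at day 15 (adjusted p = 0.00285 and 0.000415), values that by library size alone were 0.83 and 0.44 and called higher. Its injured and uninjured ranges overlapped at each day.

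Atp6v0a1, one of the a subunits that anchor the pump, had 145 (127–179) CPM in uninjured muscle, 110.3 (106–139.5) at day 4, 137 (103–159) at day 7, 114 (105–150.5) at day 11 and 101 (88.2–119) at day 15. It was lower at day 4, at -0.38 ± 0.12, and at day 15, at -0.55 ± 0.13 (adjusted p = 0.00865 and 0.000434), and by library size alone 0.92 and 0.50, called higher. Only its day 15 range lay below the uninjured one. Atp6ap1, an accessory subunit, had 159 (118–238) CPM in uninjured muscle, 191 (164–206) at day 4, 118 (80.6–188) at day 7, 107 (94–149) at day 11 and 102 (92.2–123) at day 15. It was at 0.17 ± 0.20 at day 4 (adjusted p = 0.462) and lower at day 15, at -0.68 ± 0.20 (adjusted p = 0.00439), a value that by library size alone was 0.35 and not called. Its injured and uninjured ranges overlapped at each day.

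The d subunits, which link the ring to the stalk, differed in their course. Atp6v0d1, the form found in most cells, had 64.4 (49.4–69.6) CPM in uninjured muscle, 74.8 (66.1–82.7) at day 4, 64.9 (55.7–86.5) at day 7, 63.6 (47.7–83.6) at day 11 and 60.7 (53.2–74.8) at day 15. Its ranges overlapped the uninjured one at each day, and its log2 fold change was 0.25 ± 0.14 at day 4 (adjusted p = 0.105) and -0.04 ± 0.14 at day 15 (adjusted p = 0.815), while by library size alone it was called higher at both (1.56 and 1.01). Atp6v0d2, the form known from osteoclasts and macrophages, had 0.0401 (0–0.0886) CPM in uninjured muscle, 25.7 (8.35–41.2) at day 4, 22.3 (4.84–40.5) at day 7, 11.8 (3.18–27.7) at day 11 and 8.89 (3.25–17.4) at day 15. It had 9649, 6700, 2918 and 1363 counts at days 4, 7, 11 and 15, against 6 counts in all 6 uninjured libraries. The ratio of levels, with a 95% interval for counting error only, was 567 (261–1546) at day 4, 565 (259–1540.1) at day 7, 314 (144–855) at day 11 and 219 (100.3–597) at day 15. In counts not corrected for length, Atp6v0d2 held 0.0585% (0–0.144) in uninjured muscle, 25% (9.85–34.1) at day 4, 25.8% (8–31.9) at day 7, 13.8% (5.98–24.9) at day 11 and 12.8% (5.75–18.9) at day 15 of the Atp6v0d1 and Atp6v0d2 counts. Every injured library was above every uninjured one.

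Tcirg1, the a3 subunit known from osteoclasts and macrophages, showed a similar shift within its family. It had 25.6 (16.8–34.8) CPM in uninjured muscle, 251 (238–309.8) at day 4, 215 (122–549.9) at day 7, 171 (90.6–270.4) at day 11 and 112 (77.3–183) at day 15, a log2 fold change of 3.37 ± 0.28 at day 4 (edgeR adjusted p = 1.79e-10). Its share of the Atp6v0a1, Atp6v0a2 and Tcirg1 counts was 11.4% (6.38–14.1) in uninjured muscle, 59.5% (57.3–66) at day 4, 54.4% (38.8–70.5) at day 7, 48.6% (35.3–63.1) at day 11 and 44% (31.2–57.1) at day 15. The macrophage marker sum was high in the same libraries (3395 to 4899.9 CPM at day 4, against 55.4 to 81.4 CPM in uninjured muscle), and its part in both shifts was not tested. The summed level of 8 osteoclast markers was 65.6 (61–74.5) CPM in uninjured muscle, 119 (98.7–124) at day 4, 112 (74.6–161) at day 7, 92.3 (54.1–150.1) at day 11 and 86.6 (60.4–89.2) at day 15. Of the 8, 5 were called higher and 1 lower at each of days 4, 7 and 11, and 3 were higher and 1 lower at day 15. Acp5, 1 of the 8 and an acid phosphatase that macrophages also express, had 0.375 (0.241–1.02) CPM in uninjured muscle, 55.3 (36–66.1) at day 4, 51.7 (15.9–76.5) at day 7, 31.5 (6.6–69.5) at day 11 and 10.2 (5.47–13.9) at day 15. Most of the rise of the marker sum at day 4 therefore lay in Acp5 alone. Calcr, the calcitonin receptor, had 0.649 (0.046–1.37) CPM in uninjured muscle, 0.239 (0.123–0.375) at day 4, 0.404 (0.249–1.0) at day 7, 0.654 (0.0632–0.981) at day 11 and 1.02 (0.359–1.39) at day 15, and was called at no day. Dcstamp, needed for osteoclast fusion, had 0 (0–0.0879) CPM in uninjured muscle, 0.306 (0.0998–0.566) at day 4, 0.604 (0.104–1.62) at day 7, 0.661 (0.122–1.14) at day 11 and 0.691 (0.0811–1.6) at day 15. It was called higher at each day, with 127 counts at day 4 and 2 in uninjured muscle, a ratio of 22.4 (6.08–187), and a ratio of 62.5 (17.1–519) at day 7, each with a 95% interval for counting error only. Calcr, Dcstamp and Acp5 were picked after their values were seen, and the part of osteoclast-like cells in these shifts was not tested.

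**Figure D4:**
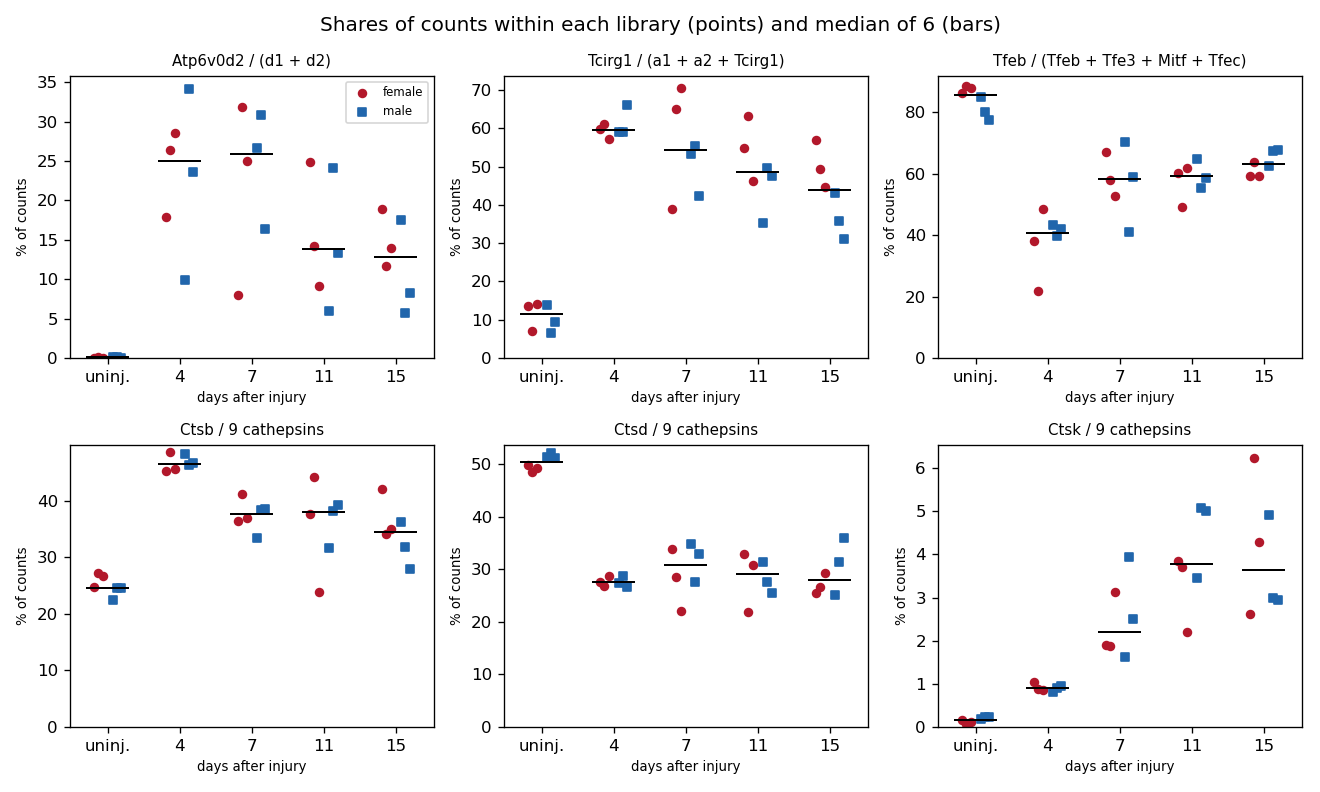
Shares of counts within each library (percent, not corrected for length) by days after injury: Atp6v0d2 among the d subunits, Tcirg1 among 3 a subunits, Tfeb among 4 MiT/TFE factors, and Ctsb, Ctsd and Ctsk among 9 cathepsins, with females as circles, males as squares and the median of 6 libraries as a bar. These shares do not depend on scaling. In every injured library the Atp6v0d2 and Tcirg1 shares lie above, and the Tfeb and Ctsd shares below, their uninjured ranges, and the Ctsk share is above its day 4 range at each later day.

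Other lysosomal genes were counted in the same way. Their TMM counts are to be read against all tested genes, with 40.1% higher and 33% lower at day 4. At day 15 these shares were 39.7% and 29.3%. Of 27 other hydrolases and activators, 22 were higher and 1 lower at day 4, and 14 were higher and 3 lower at day 15. Ctss, the cathepsin of antigen-presenting cells, had 2.01 (1.76–5.21) CPM in uninjured muscle, 803 (685–903) at day 4, 135 (52.2–402) at day 7, 122 (21.2–256) at day 11 and 64.4 (20.3–128) at day 15 and a log2 fold change of 8.25 ± 0.66 at day 4 (edgeR adjusted p = 8.54e-11). Acp5 was higher by 6.79 ± 0.61. Aga, which cleaves the link between asparagine and sugar chains, was the 1 that was lower, at -0.96 ± 0.15, and by library size alone was 0.34. Of 17 other membrane proteins, 13 were higher and 2 lower at day 4. Cd68, a macrophage marker, was higher by 7.41 ± 0.59, while Mcoln2, a relative of Mcoln1, had 2540 counts at day 4 against 12 in uninjured muscle, a ratio of 74.7 (42.7–145). Tpcn1, a cation channel of endosomes and lysosomes, was at -0.64 ± 0.13, and Abca2, a lipid transporter, at -0.60 ± 0.25 (adjusted p = 0.0367). By library size alone Tpcn1 was at 0.66 and Abca2 at 0.71.

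Of 14 tested other subunits of the pump, 6 were higher and 5 lower at day 4, and 5 were higher and 5 lower at day 15. Library size alone gave 10 higher and 1 lower at both days. Under that scaling 73.5% of all tested genes were higher and 8.65% lower at day 4, and 69.8% and 7.94% at day 15. Atp6ap2, the prorenin receptor, was higher by 1.53 ± 0.28. Atp6v0e2 was lower, at -2.75 ± 0.43 (adjusted p = 2.85e-06) and was -1.47 by library size alone. Atp6v1g1 was at -1.06 ± 0.21 and by library size alone at 0.23.

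Most of the genes were lower at day 7 than at day 4, and no gene was called between later neighbouring days. At day 7 against day 4, 27 of the 41 were lower (65.9%) and 2 higher (4.88%), while 16.7% of all tested genes were lower and 18.5% higher. The 2 that were higher were Ctsf and Tfeb, by 0.77 ± 0.26 and 0.77 ± 0.20 (edgeR adjusted p = 0.0239 and 0.00504). Lgmn fell by 1.82 and Psap by 1.69 on the log2 scale (adjusted p = 0.000302 and 0.000485). Leaving out 1 library at a time gave 21 to 29 lower and 1 to 3 higher. Only 1 gene was called higher without any one of male day 7 replicate 3, male day 4 replicate 3, female day 7 replicate 1 or female day 4 replicate 2. At day 11 against day 7 no gene was called in either direction (background 0.0408% higher and 0.0175% lower, 0.0584% in either direction), by edgeR or DESeq2. At an unadjusted p under 0.05, 2 were lower, Atp6v0c and Gusb, and 0 higher. At day 15 against day 11 edgeR called 0 genes (background 2% higher and 2.25% lower, 4.24% in either direction), with 6 lower and 0 higher at an unadjusted p under 0.05, and DESeq2 called 1 lower. Without female day 11 replicate 3, 5 genes were called lower, and without female day 7 replicate 1, 1 was. Over the whole span, day 15 against day 4, 29 genes were lower (70.7%) and 3 higher (7.32%), against 27% and 25.1% of all tested genes. The 3 were Ctsf, Smpd1 and Tfeb, which were also the 3 called lower at day 4 in all 3 scalings. Gla, at -2.83 ± 0.32, and Lgmn, at -2.65 ± 0.32, had the most negative values. These comparisons share the day 4 libraries with those against uninjured muscle.

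**Figure D5:**
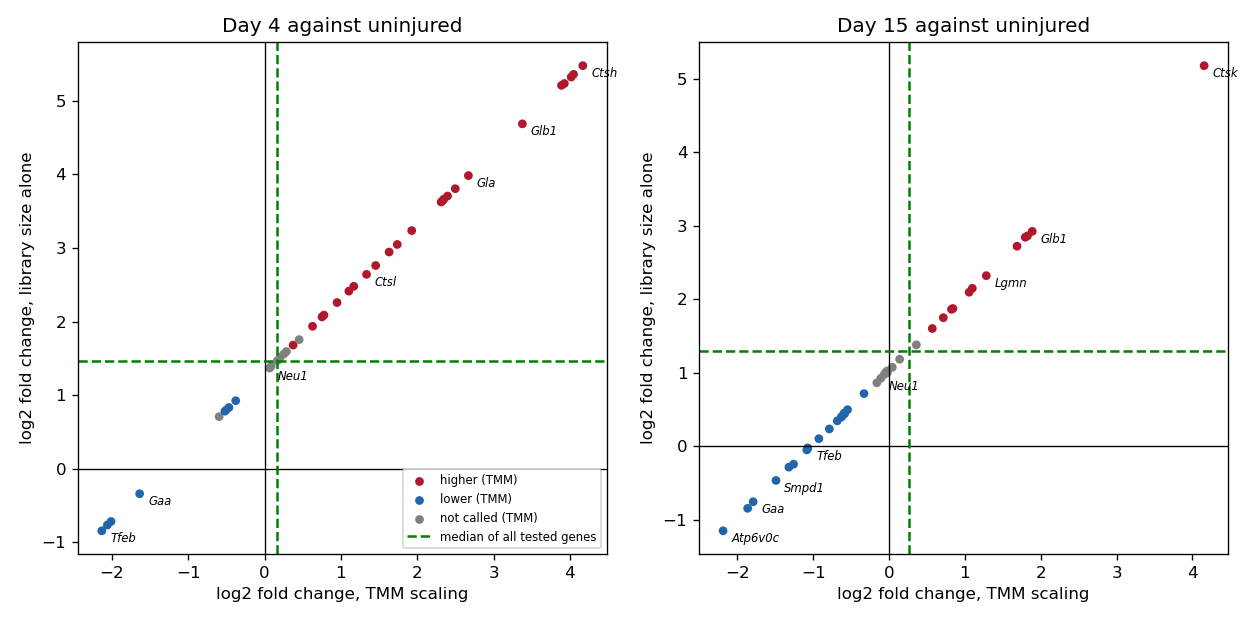
Log2 fold change of 40 genes (all but Atp6v0d2) with TMM scaling (x axis) and by library size alone (y axis) at day 4 and day 15 against uninjured muscle; colours give the TMM call and dashed green lines the median of all tested genes. The median of all genes is 0.17 at day 4 and 0.26 at day 15 with TMM, and 1.47 and 1.30 by library size alone. At day 15, 9 of the 18 genes called lower with TMM lie above 0 on the y axis and all 18 lie below the median line.

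Differences between the sexes did not pass the test for any of these genes. In uninjured females against uninjured males no gene was called (background 0.181% higher and 0.461% lower, 0.642% in either direction), by edgeR or DESeq2. At an unadjusted p under 0.05, 1 was higher in females, Tfeb, and 1 lower, Npc1, both chosen after their values were seen. Tfeb averaged 275 ± 14.7 CPM in females and 167 ± 11.7 CPM in males (SD, n = 3 each), a log2 difference of 0.72 ± 0.28 (adjusted p = 0.276). Npc1 averaged 54.7 ± 6.92 CPM in females and 92.1 ± 32.2 CPM in males (SD, n = 3 each), a difference of -0.75 ± 0.22 (adjusted p = 0.123). The joint test of a sex difference in the response over the 4 days called 0 of the 41 genes by edgeR or DESeq2 (background 0.035%), with 0 at an unadjusted p under 0.05, and 0 when any 1 library, female day 11 replicate 3 included, was left out. Differences within the spread of 3 libraries per group were not detectable.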

How the data were processed

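RNA was sequenced from 30 tibialis anterior libraries in 10 groups of sex and time. Per the labels' protocols, extraction and library preparation were both done commercially. The submitters' processing notes name STAR, edgeR and the genome build mm39. Their versions, the program that counted reads, its annotation and its strand setting are not given here. The deposited values are raw counts per gene symbol for 26264 symbols, with no normalization by the authors. Of the counts from 1 to 20, 65.5 to 77.5% were even in each library, as when both reads of a pair are counted, so halved counts were tried.

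Genes were kept with filterByExpr (17136 genes), scaled with TMM and fitted with edgeR 4.0.16 in R 4.3.3 (glmQLFit, 1 mean per group, all 30 libraries). Contrasts, with both sexes weighted equally, were tested with glmQLFTest, and p-values were adjusted by the method of Benjamini and Hochberg over all tested genes with a threshold of 0.05. SE values come from the same fits. Counting intervals are 95% and cover counting error only. The smallest chi-square per degree of freedom between replicates was 16.2, so no library was a repeat of another in its group. Libraries of different groups were not compared in this way. Replicate numbers did not pair the libraries: deviations of same-numbered libraries had a mean correlation of 0.0125 over 135 pairs, with -0.00633 over 270 others.

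The 41 genes and the other lists were chosen with earlier results of these data known. Levels of each day are printed for the 2 largest and 2 smallest day 4 values of each role, for every gene called lower at any day or called at no day, and for Tfeb; Lgmn, Ctsb, Calcr, Dcstamp and Acp5 were added after their values were seen. From each other list the rule takes the 2 largest called rises and falls at day 4 among genes with a mean of at least 1 CPM, plus Ctss, Cd68, Mitf, Tfe3, Tfec and Tcirg1. Cst7, below that level at day 4, was named after its values were seen. Alternatives were RLE scaling, library size alone, 2 other filters, DESeq2 1.42.0, only the compared groups, a replicate block, halved counts, each sex alone and leaving out each library. The fit was tested on simulated data with known changes. These were balanced between rises and falls in a small part of the genes, so the simulation does not test the choice of scaling. Promoter windows came from RefSeq's GRCm38.p6 table, and exon overlaps from GENCODE M21, an annotation of GRCm38, which were found for 10 of the 41 genes.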

Additional observations from a re-analysis of the deposited data

Results flagged for a closer look

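In 14 of 205 groups of 6 libraries (41 genes at 5 times) the highest or lowest library stood apart: its gap to the nearest other, divided by the range of the group, exceeded Dixon's 95% critical value. Chance flags about 1 in 20 groups.

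Female day 4 replicate 2 accounts for 5 of the 14, in log2 CPM. Ctsc was at 7.86 there and at 6.93 to 7.23 in the other 5 libraries of day 4. Ctsf was at 3.15 there and at 3.85 to 4.20 in the other 5 libraries of day 4. Gaa was at 6.70 there and at 7.29 to 7.61 in the other 5 libraries of day 4. Gla was at 5.15 there and at 4.46 to 4.71 in the other 5 libraries of day 4. Smpd1 was at 4.70 there and at 5.28 to 5.49 in the other 5 libraries of day 4. It also had the lowest sum of mature fast fibre markers of its day, 10980.3 CPM, and the highest sum of macrophage markers, 4899.9 CPM, and their part in these values was not tested.

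The other 9 lay in several libraries. Ctsa was at 6.72 log2 CPM in male uninjured replicate 3, with 7.18 to 7.32 in the other 5 libraries. Lgmn was at 4.77 log2 CPM in male uninjured replicate 1, with 5.31 to 5.58 in the other 5 libraries. Scarb2 was at 6.51 log2 CPM in male day 4 replicate 3, with 6.74 to 6.86 in the other 5 libraries. Scarb2 was at 6.63 log2 CPM in female day 15 replicate 3, with 5.66 to 5.997 in the other 5 libraries. Atp6v0a1 was at 7.12 log2 CPM in female day 4 replicate 3, with 6.72 to 6.86 in the other 5 libraries. Atp6v0b was at 6.83 log2 CPM in male uninjured replicate 2, with 7.16 to 7.36 in the other 5 libraries. Atp6v0c was at 3.46 log2 CPM in female day 11 replicate 3, with 4.62 to 5.29 in the other 5 libraries. Atp6v0d1 was at 5.63 log2 CPM in male uninjured replicate 3, with 5.94 to 6.12 in the other 5 libraries. Atp6ap1 was at 7.22 log2 CPM in male day 11 replicate 2, with 6.56 to 6.80 in the other 5 libraries.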

How the results depend on the processing

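A value kept its call if it stayed called in the same direction, or was called in neither setting, whatever its sign. Of the 164 log2 fold changes against uninjured muscle (41 genes at 4 days), 161 kept their call with RLE scaling and 160 with DESeq2. The number was 163 with the stricter filter on CPM, 164 with no filter, 164 with halved counts and 157 with only the compared groups. Within males 23 and within females 18 of them no longer passed the threshold. With library size alone 84 kept their call, 12 no longer passed and 25 newly passed. Another 43 changed sign and were called with TMM, by library size alone or by both. All 43 went from below 0 to above it, as the shift in the median of all genes does by construction. For log2 fold changes at day 4 these values were Lamp1 0.71, Scarb2 0.80, Mcoln1 0.78, Atp6v0a1 0.92 and Atp6v0b 0.83. At day 7 these were Ctsd 0.68, Ctsl 1.01, Npc1 0.67, Scarb2 0.12, Mcoln1 0.68, Atp6v0a1 1.03, Atp6v0b 0.64, Atp6v1b2 0.63, Atp6v1c1 0.62 and Atp6ap1 0.72. At day 11 these were Ctsd 0.26, Ctsf 0.12, Ctsl 0.41, Tpp1 1.03, Npc1 0.35, Psap 0.33, Mcoln1 0.52, Atp6v0a1 0.82, Atp6v0b 0.63, Atp6v1b2 0.55, Atp6v1c1 0.51 and Atp6ap1 0.54. At day 15 these were Ctsa 1.03, Ctsb 1.00, Ctsf 0.10, Ctsl 0.24, Tpp1 0.72, Gla 0.86, Gusb 0.98, Neu1 0.93, Npc2 1.00, Mcoln1 0.45, Atp6v0a1 0.50, Atp6v0b 0.44, Atp6v0d1 1.01, Atp6v1b2 0.40, Atp6v1c1 0.41 and Atp6ap1 0.35.

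With library size alone the number of genes called lower was 3, 2, 4 and 4 at days 4, 7, 11 and 15. The number called higher was 33, 30 and 27 at days 7, 11 and 15, and 1 gene was higher at day 7 than at day 4. Within males 11 genes were called lower at day 11. DESeq2 called 1 gene lower at day 15 than at day 11. The cause of the last 2 was not tested.

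Leaving out 1 library at a time gave 24 to 27 genes higher and 7 to 9 lower at day 4, 15 to 18 and 11 to 14 at day 7, 14 to 19 and 14 to 17 at day 11, and 13 to 13 and 16 to 18 at day 15. It gave 1 to 3 higher and 21 to 29 lower at day 7 against day 4, 2 to 3 and 27 to 31 at day 15 against day 4, and 0 to 0 higher and 0 to 5 lower at day 15 against day 11. In uninjured females against males it gave 0 to 0 higher and 0 to 1 lower, the 1 without male uninjured replicate 1. The other counts stayed at 0.

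The replicate numbers share no more than a number. With the replicate number as a block, 25, 18, 15 and 13 genes were higher and 7, 12, 17 and 18 lower at the 4 days, and 163 of the 164 values kept their call. Within-sex comparisons between days were not run. Halving every count changed none of the 164 calls; depth limits Atp6v0d2, which had 6 uninjured counts in all.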

Other observations

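Genes of the routes into the lysosome were counted beside the enzymes. With TMM, 40.1% of all tested genes were higher and 33% lower at day 4, and 39.7% and 29.3% at day 15. By library size alone the shares were 73.5% and 8.65% at day 4, and 69.8% and 7.94% at day 15. The counts in this section are to be read against these shares. Of 16 autophagy genes, 1 was higher and 10 lower at day 4 by edgeR's quasi-likelihood test, and 1 was higher and 11 lower at day 15. By library size alone 8 were higher and 2 lower at day 4. Under either scaling 15 of the 16 lay below the median of all genes, a position that a change of scaling hardly alters. Atg9a, a membrane protein of the early autophagosome, had 321 (249–469.6) CPM in uninjured muscle, 67.2 (44.5–69.8) at day 4, 64 (44.9–123) at day 7, 62.9 (45.7–82.5) at day 11 and 70.6 (46.1–91.6) at day 15, a log2 fold change of -2.43 ± 0.23 at day 4 (adjusted p = 1.15e-09) and of -1.14 by library size alone. Bnip3, a receptor for mitophagy, was lower, at -1.92 ± 0.31 (adjusted p = 5.55e-06), and by library size alone at -0.62. Uvrag, which acts in autophagosome and endosome maturation, was the 1 that was higher, by 0.74 ± 0.12 (adjusted p = 4.22e-06).

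Of 10 genes of lysosomal sorting, 5 were higher and 4 lower at day 4, and 0 were higher and 6 lower at day 15, where library size alone gave 5 higher and 1 lower. M6pr, a mannose 6-phosphate receptor that carries new hydrolases, was higher by 1.42 ± 0.19 at day 4, and the adaptor Gga2 by 1.29 ± 0.16. Rab7 and Gga1 were at -1.06 ± 0.14 and -0.98 ± 0.11 with TMM and at 0.25 and 0.33 by library size alone. Among 4 tested cystatins, inhibitors of cysteine cathepsins, 2 were higher and 2 lower at day 4. Cst7 was called higher on 196 counts at day 4 and 0 in uninjured muscle. Cstb was higher by 3.03 ± 0.40, while Cst3 was at -1.30 ± 0.21 with TMM and 0.00 by library size alone, and Cst6 at -1.61 ± 0.39 and -0.33.

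Of 15 genes for the MiT/TFE factors and the nutrient sensing that controls them, 5 were higher and 4 lower at day 4 with TMM. By library size alone 12 were higher and 1 lower. Of all tested genes, 40.1% were higher and 33% lower with TMM, and 73.5% and 8.65% by library size alone. The counts lay near those shares. Fnip2, a folliculin partner, was higher by 2.75 ± 0.20. Rragd, a Rag GTPase that recruits mTORC1 and TFEB to the lysosome, was lower, at -2.93 ± 0.36 (adjusted p = 8.97e-08), and by library size alone at -1.64. Lamtor2, of the complex that anchors the Rag GTPases, was at -1.33 ± 0.17, and at -0.03 by library size alone.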
